A study of Mus musculus with 2 samples.

Results

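The genes described here are 10 that move calcium into, out of and within the cell: Itpr1, Itpr2, Atp2a2, Atp2b1, Atp2b4, Stim1, Stim2, Orai1, Slc8a1 and Plcb1. They were taken by symbol from the count matrices, and all 10 were found among the 32285 genes listed. None of the 10 was among the 2000 variable genes used to cluster the cells.

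In the classical pathway a receptor coupled to a Gq protein activates phospholipase C, which makes inositol trisphosphate, and this opens receptor channels in the endoplasmic reticulum that release stored calcium. Calcium is then pumped back into the store or pushed out across the plasma membrane by pumps and the sodium-calcium exchanger, while STIM proteins sense an emptying store and open ORAI channels for refilling. Astrocytes are known for calcium signals of this kind, for which ITPR2 is regarded as the main release channel, whereas ITPR1 is best known from neurons.

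The data are unique molecular identifier (UMI) counts from single cells of mouse hippocampus at 7 weeks of age, captured with 10x Genomics 3' chemistry after papain dissociation. The 60TM mice carried the transgene labelled GFAP-hGFAP, which expresses human GFAP to model Alexander disease, a disorder of astrocytes, on a C57BL6/J background, and the WT mice were C57BL6/J. Each genotype had 1 library pooled from 3 mice, so no difference between genotypes was tested and every ratio compares 2 libraries. Levels are UMIs scaled to 1000000 UMIs of a cell class and library (CPM), and the ranges in parentheses are exact 95% intervals that cover counting error only.

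After filtering, the 60TM library held 7515 cells with 69955041 UMIs and the WT library 6058 cells with 57050779 UMIs, and 20 barcodes occurred in both libraries. Clusters were named from marker genes into 17 classes. Another 3 clusters carried markers of 2 classes or were shallow, stayed unnamed, and are called by their leading genes. Mouse Gfap, the astrocyte filament gene, served as the check of the labels and stood at 1309 CPM in 60TM astrocytes, against 395 CPM in WT astrocytes. The sources used here do not say whether human GFAP reads are counted there. In 60TM astrocytes, 2 clusters with 563 cells held no WT cell, so the astrocyte ratios past 1.5-fold are also given without them. A ratio counted as higher or lower where it was past 1.5-fold, for genes with at least 100 UMIs over both libraries in 13 classes, those of at least 50 cells per library.

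Among the 10 genes, Itpr2 and Slc8a1 followed opposite courses along the oligodendrocyte lineage, and their promoter sequences are shown for that reason. Of the 10 genes, 8 matched the RefSeq promoter table of build GRCm38.p6, with 9 entries. Each runs from 250 bases before to 50 bases after a start listed there. Itpr1 and Atp2a2 have no entry there. Capitals mark the GC box GGGCGG on either strand.
Itpr2 (chr6:146502174-146502473, minus strand): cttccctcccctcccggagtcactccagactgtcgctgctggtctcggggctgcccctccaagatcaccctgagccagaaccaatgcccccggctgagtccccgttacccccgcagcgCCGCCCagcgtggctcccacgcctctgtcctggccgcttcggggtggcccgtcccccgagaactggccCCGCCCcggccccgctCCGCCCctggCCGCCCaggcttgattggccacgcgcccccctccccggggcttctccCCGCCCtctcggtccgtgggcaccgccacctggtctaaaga
Slc8a1 (chr17:81738338-81738637, minus strand): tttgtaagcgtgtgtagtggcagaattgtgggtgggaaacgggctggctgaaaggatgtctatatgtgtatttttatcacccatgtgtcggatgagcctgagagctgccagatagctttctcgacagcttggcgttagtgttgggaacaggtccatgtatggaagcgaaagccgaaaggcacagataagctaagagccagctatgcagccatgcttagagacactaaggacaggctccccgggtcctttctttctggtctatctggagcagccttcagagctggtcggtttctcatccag
The Itpr2 window held 5 GC boxes at 73.3% G and C, and the Slc8a1 window held none at 50.7%. Over 32851 promoters of the same length, 35.7% held a GC box and the median G and C content was 52.7%. The windows of Stim1 (8 boxes), Orai1 and Stim2 (3 each), Plcb1 (1) and both windows of Atp2b1 (4 and 3) also held it, and that of Atp2b4 did not. The Atp2b4 window (chr1:133753698-133753997, minus strand) lay inside the gene, whose annotated start on that strand is at 133801041. Another 4 motifs were searched on both strands. The CCAAT box (CCAAT, in 37.4% of all promoters) was in 3 of the 9 windows, those of Itpr2, Stim2 and Orai1, and the E-box core (CANNTG, in 72.3%) in 6, among them Itpr2 and Slc8a1. The TATA box (TATAAA, in 13.6%) and the SOX core (ACAAAG, in 18.7%) were in 0 of 9. The letters describe these windows and were not tied to any measured level.

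Itpr2, the release channel associated with astrocytes, was highest not in astrocytes but in committed oligodendrocyte precursors, at 993 CPM (946 to 1042) in the 60TM library and 895 CPM (852 to 940) in the WT library. OPCs, the oligodendrocyte precursor cells, followed with 304 CPM in both libraries. Microglia stood at 153 CPM in 60TM and 152 CPM in WT, and astrocytes at 130 CPM in 60TM and 124 CPM in WT. The committed precursors were clear of every other class in both libraries. Astrocytes and endothelial cells, next to each other in the order, were close in 60TM, at 130 CPM and 132 CPM. In WT they were further apart, at 124 CPM in astrocytes and 72.3 CPM in endothelial cells. Mature oligodendrocytes had only 11.2 CPM in 60TM and 11.95 CPM in WT, and choroid plexus cells 1.45 CPM in 60TM and 0.985 CPM in WT. After thinning each cell to 2000 UMIs, an Itpr2 UMI remained in 82.1% (71.7 to 89.8) of committed precursors in 60TM and 75.3% (65.0 to 83.8) in WT. Without thinning the shares were 97.6% in 60TM and 98.9% in WT, at median depths of 20754 UMIs in 60TM and 20554 in WT. In choroid plexus cells, the class near 0, the thinned share was 0.437% (0.0111 to 2.41) in 60TM, and 0 of 58 cells in WT, which allows a share of up to 5.17%. Choroid plexus cells had median depths of 15800 UMIs in 60TM and 13565 in WT.

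Itpr1, the other release channel, reached 200 CPM (136 to 284) in 60TM and 132 CPM (93.7 to 182) in WT in the unnamed cluster led by Vtn and Kcnj8, which carries pericyte with fibroblast markers. Excitatory neurons had 143 CPM in 60TM and 113 CPM in WT, and choroid plexus cells 153 CPM in 60TM and 91.6 CPM in WT. The first 4 places in the order were not told apart by their intervals. Astrocytes had only 9.47 CPM (8.02 to 11.1) in 60TM and 6.10 CPM (4.32 to 8.37) in WT. The lowest class was the committed precursors, with 2 UMIs in 60TM and 1 UMI in WT, so the class with the highest Itpr2 level was the one with the lowest Itpr1 level.

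**Figure D1:**
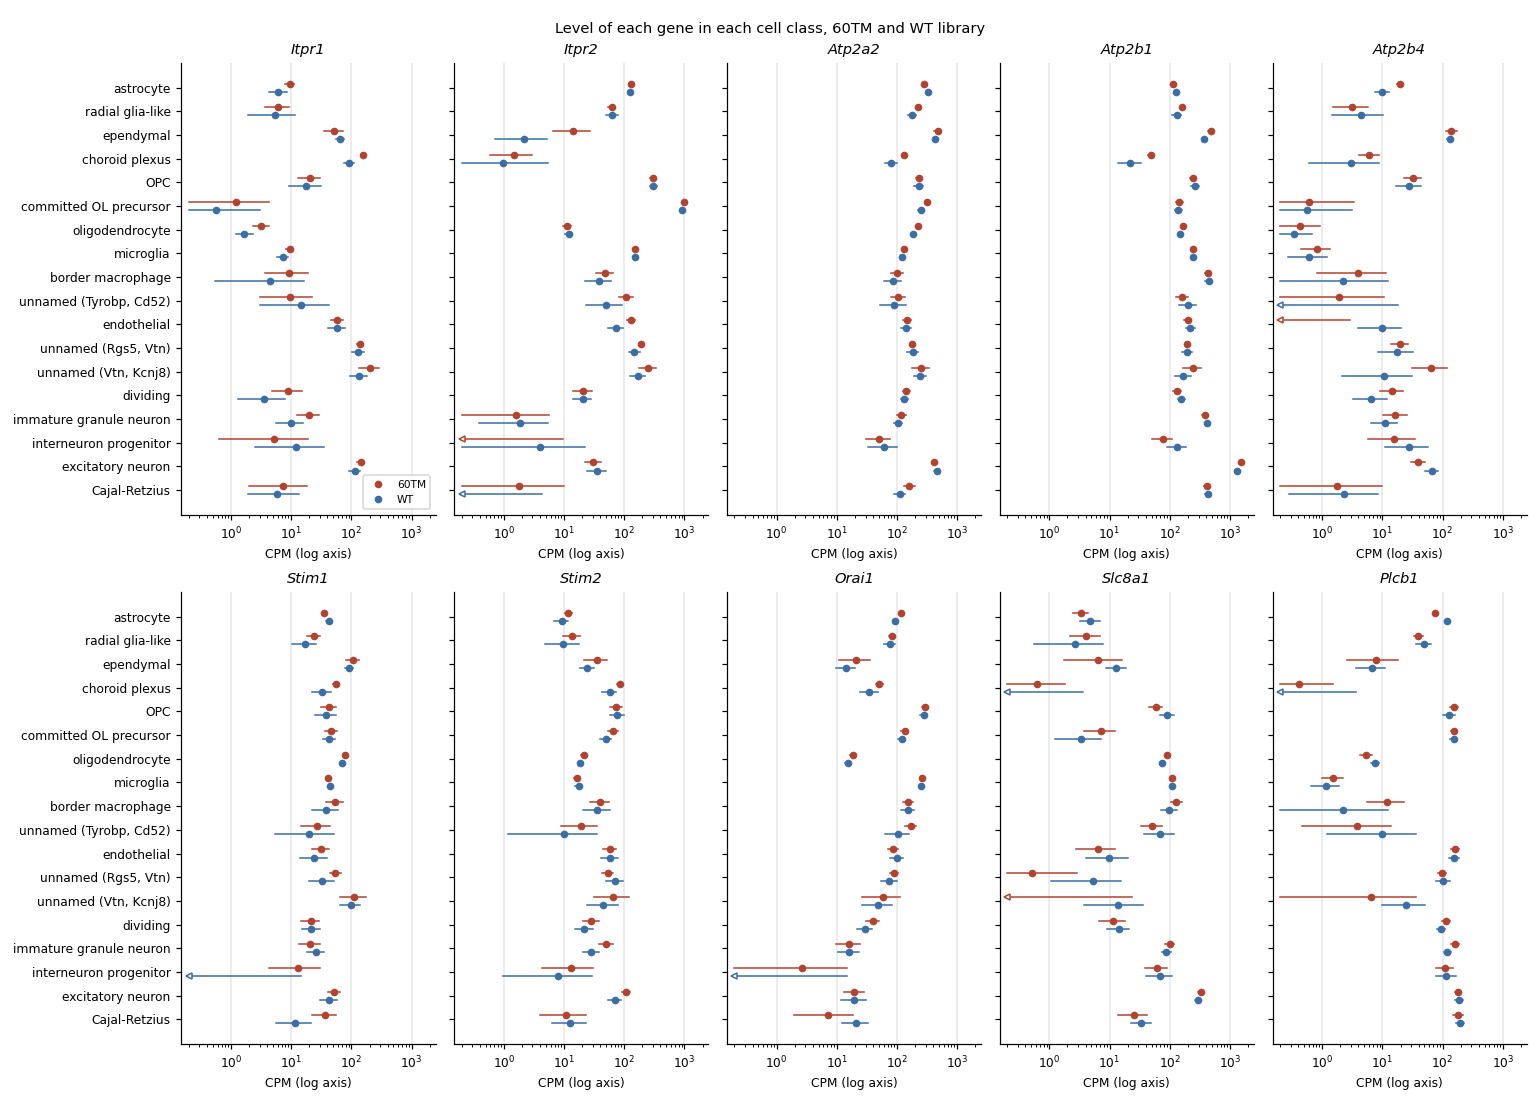
Each panel shows 1 gene in 18 classes or clusters with at least 25 cells per library, as CPM on a log axis, with points for the 60TM library (red) and the WT library (blue) and bars for 95% counting intervals. Open triangles mark 0 UMIs. Itpr2 peaks in committed oligodendrocyte precursors (993 CPM in 60TM, 895 CPM in WT), where Itpr1 has its lowest level.

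Atp2a2, the SERCA2 pump that refills the store, had an 8.23-fold span between the highest and lowest class mean. This was the smallest span of the 10, close to the 8.51-fold span of Stim2. It stood at 471 CPM in 60TM and 434 CPM in WT in ependymal cells, at 417 CPM in 60TM and 455 CPM in WT in excitatory neurons, and at 280 CPM in 60TM and 327 CPM in WT in astrocytes. The neighbouring ranks of ependymal cells and excitatory neurons overlapped in their intervals.

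The plasma membrane pumps Atp2b1 (PMCA1) and Atp2b4 (PMCA4) differed in where they were found. Atp2b1 was present in every class and highest in excitatory neurons, at 1536 CPM (1473 to 1602) in 60TM and 1308 CPM (1235 to 1384) in WT. Those neurons were clear of the next classes, border macrophages, ependymal cells and Cajal-Retzius cells, which were not told apart from one another. Atp2b4 was highest in ependymal cells, at 140 CPM in 60TM and 131 CPM in WT. It was almost missing from oligodendrocytes, at 0.431 CPM in 60TM (6 UMIs) and 0.344 CPM in WT (8 UMIs), and from microglia, at 0.808 CPM in 60TM and 0.616 CPM in WT.

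The sensors of store filling, Stim1 and Stim2, were found across the classes. Stim1 was highest in the cluster led by Vtn and Kcnj8, at 110 CPM (63.9 to 176) in 60TM and 97.6 CPM (64.8 to 141) in WT, and was not told apart there from ependymal cells, at 106 CPM in 60TM and 91.5 CPM in WT. It stood at 79.3 CPM in 60TM and 69.6 CPM in WT in oligodendrocytes. Stim2, known to respond to small losses of store calcium, was highest in excitatory neurons, at 108 CPM in 60TM and 70.6 CPM in WT. Its lowest class was astrocytes, at 11.8 CPM (10.2 to 13.7) in 60TM and 9.15 CPM (6.93 to 11.9) in WT. No neighbouring classes in the Stim2 order were clear of each other.

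Orai1, the pore of store-operated entry, had its highest levels in OPCs, at 289 CPM in 60TM and 276 CPM in WT, and in microglia, at 263 CPM in 60TM and 249 CPM in WT. OPCs and microglia overlapped in their intervals and microglia were clear of the next class, border macrophages. Excitatory neurons had 19.7 CPM in 60TM and 19.6 CPM in WT. Slc8a1, the sodium-calcium exchanger NCX1, was highest in excitatory neurons, at 329 CPM in 60TM and 292 CPM in WT, clear of all others. It stood at 110 CPM in microglia of both libraries and at only 3.32 CPM in 60TM and 4.82 CPM in WT in astrocytes.

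Plcb1, the Gq-activated phospholipase C that makes inositol trisphosphate, divided the glia. It stood at 155 CPM in 60TM and 129 CPM in WT in OPCs, and at 75.5 CPM in 60TM and 119 CPM in WT in astrocytes. Microglia had 1.51 CPM in 60TM and 1.15 CPM in WT, and oligodendrocytes 5.39 CPM in 60TM and 7.44 CPM in WT. Cajal-Retzius cells and excitatory neurons, the highest classes, were not told apart. The counting could also be touched by antisense genes: the annotation places genes on the other strand within Itpr1, Orai1, Slc8a1 and Plcb1, and the sources used here do not say whether counting used strand.

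Along the oligodendrocyte lineage the genes changed place in stages. Itpr2 stood at 304 CPM in OPCs of both libraries and peaked in committed precursors at 993 CPM in 60TM and 895 CPM in WT. It was at 29.3 CPM in 60TM and 72.8 CPM in WT in the oligodendrocyte cluster led by Onecut2 and Ctps, and at 4.11 to 9.65 CPM in the 3 largest oligodendrocyte clusters of both libraries. Plcb1 stayed level between OPCs and committed precursors (154 CPM in 60TM and 152 CPM in WT) and then went down to 0.643 to 3.19 CPM in those 3 clusters. Orai1 was at 289 CPM in 60TM and 276 CPM in WT in OPCs, at 133 CPM in 60TM and 120 CPM in WT in committed precursors, and at 13.7 to 22.2 CPM in those 3 clusters. Slc8a1 was lowest in the middle of the lineage: OPCs had 58.6 CPM in 60TM and 90.4 CPM in WT, committed precursors 7.17 CPM (3.70 to 12.5) in 60TM and 3.32 CPM (1.22 to 7.24) in WT, and oligodendrocytes 90.9 CPM in 60TM and 74.5 CPM in WT. Itpr2 and Slc8a1 thus had opposite extremes in the committed precursors of both libraries.

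**Figure D2:**
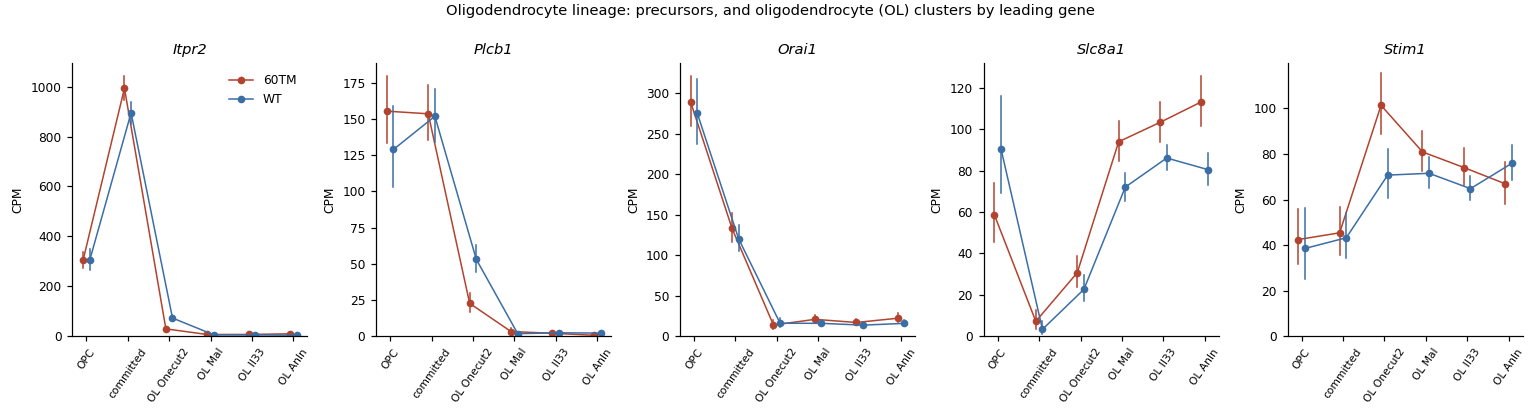
Levels (CPM) of 5 genes in OPCs, committed precursors and 4 oligodendrocyte (OL) clusters named by a leading gene, with 60TM in red, WT in blue and bars for 95% counting intervals. Lines join classes for reading and are not a measured time course. Itpr2 is highest in committed precursors, where Slc8a1 has 7.17 CPM in 60TM and 3.32 CPM in WT.

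Between the libraries, 81 combinations of a gene and a class had at least 100 UMIs. The 60TM level was past 1.5-fold higher in 9 of them and lower in 3, and within 1.5-fold in 69. Over all 74627 combinations of a gene and a class with as many UMIs, 7.48% were past 1.5-fold, 4.11% higher and 3.37% lower. These 12 fell in 6 of the 13 classes. None was in border macrophages (0 of 4 genes, against 10.6% of all genes past 1.5-fold), radial glia-like cells (0 of 5, against 7.94%), dividing cells (0 of 4, against 5.84%) or Cajal-Retzius cells (0 of 3, against 3.66%).

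Astrocytes, the cells that make GFAP, had 9 of the 10 genes with at least 100 UMIs, Slc8a1 having 83. Of these 9, 2 were higher (Itpr1 and Atp2b4) and 1 was lower (Plcb1), against 14.5% of all 10676 genes past 1.5-fold in astrocytes, 6.8% higher and 7.67% lower. Plcb1 stood at 75.5 CPM (71.3 to 79.9) in 60TM and 119 CPM (111 to 128) in WT, a ratio of 0.634 (0.578 to 0.696). Atp2b4 stood at 19.5 CPM (17.4 to 21.8) in 60TM and 9.96 CPM (7.63 to 12.8) in WT, a ratio of 1.96 (1.49 to 2.62). The libraries did not overlap in their counting intervals for either gene. Itpr1 rested on 151 UMIs in 60TM and 38 UMIs in WT, a ratio of 1.55 (1.08 to 2.28) that was 1.02 as a mean over cells. After thinning each cell to 2000 UMIs, the ratio of Plcb1 was 0.701 (0.583 to 0.846) and that of Atp2b4 1.3003 (0.817 to 2.13), both within 1.5-fold.

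The other 6 astrocyte genes were within 1.5-fold. Orai1 had 119 CPM in 60TM and 92.6 CPM in WT, a ratio of 1.28 (1.17 to 1.41). Atp2a2 had a ratio of 0.855 (0.811 to 0.901), Atp2b1 of 0.868 (0.798 to 0.945) and Stim1 of 0.823 (0.710 to 0.956). Itpr2, the astrocyte release channel, was at 1.05 (0.965 to 1.14), and Stim2 at 1.29 (0.958 to 1.77). The median log2 ratio of the 9 genes was 0.07, beside -0.06 over all genes tested.

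Markers of other cells in the astrocyte class were measured beside these ratios. The 10 microglial markers summed to 144 CPM in 60TM and 141 CPM in WT, and the 8 endothelial markers to 20.7 CPM in 60TM and 53.8 CPM in WT, with none at 0 in either library. The 8 choroid plexus markers summed to 474 CPM in 60TM and 34.0 CPM in WT, again with none at 0. Of these, 5 of 8 were higher in 60TM. The choroid plexus markers also summed higher in 60TM in the other 6 classes examined, microglia, oligodendrocytes, OPCs, endothelial cells, excitatory neurons and immature granule neurons. Over these 7 classes they summed to between 197 and 474 CPM in 60TM, against 21.7 to 73.9 CPM in WT. The number of these markers higher in 60TM ran from 4 of 8 in OPCs to 8 of 8 in microglia. Choroid plexus cells of the 60TM library had 153 CPM of Itpr1, 6.02 CPM of Atp2b4 and 0.415 CPM of Plcb1, beside 9.47, 19.5 and 75.5 CPM in 60TM astrocytes. The 8 ependymal markers in astrocytes summed to 221 CPM in 60TM and 120 CPM in WT, with 5 of 8 higher in 60TM. Ependymal cells of the 60TM library had 50.7 CPM of Itpr1, 140 CPM of Atp2b4 and 7.93 CPM of Plcb1. The part of these markers in the ratios of any class was not tested.

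**Figure D3:**
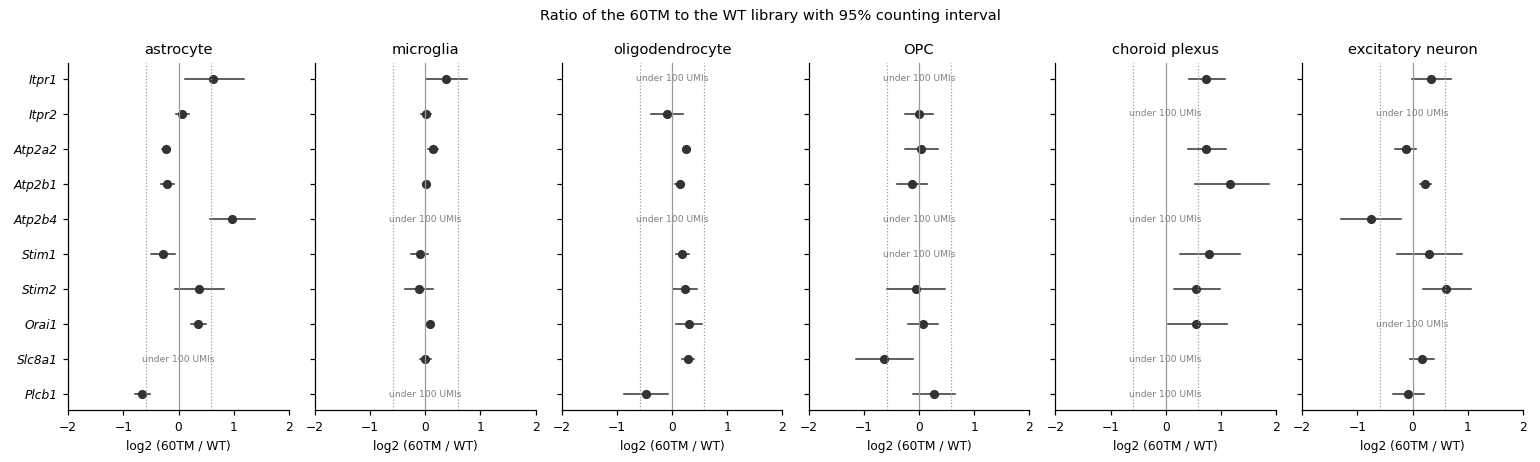
Log2 ratio of the 60TM to the WT library for the 10 genes in 6 classes, with 95% counting intervals. Dotted lines mark 1.5-fold, and genes under 100 UMIs in a class are left out. In astrocytes Plcb1 lies below the lower line at a ratio of 0.634, while microglia and oligodendrocytes have no gene past either line.

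Among astrocyte clusters, the one led by Lcn2 and C3 (528 cells) and the one led by Ccl2 and Gadd45b (35 cells) held 60TM cells only. Together they made up 26.7% of 60TM astrocytes and 39.7% of their UMIs. Lcn2, a gene of reactive astrocytes, had 18741 UMIs in 60TM astrocytes and 0 UMIs in WT astrocytes. Of the Atp2b4 UMIs of 60TM astrocytes, 70.4% lay in those clusters. The level was 156 CPM (122 to 197) in the cluster led by Ccl2 and Gadd45b, on 72 UMIs, and 25.1 CPM (21.2 to 29.5) in the cluster led by Lcn2 and C3. In the remaining 60TM astrocytes Atp2b4 stood at 9.56 CPM, against 9.96 CPM in WT, a ratio of 0.960 (0.688 to 1.35). Outside the clusters that WT lacked, the libraries thus overlapped in their Atp2b4 intervals.

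Plcb1 was low in the same clusters, at 44.8 CPM (39.6 to 50.6) in the cluster led by Lcn2 and C3 and 26.0 CPM (13.4 to 45.5) in the one led by Ccl2 and Gadd45b. In the shallow cluster led by Mt1 and Gfap, which both libraries shared, it stood at 40.7 CPM (23.7 to 65.2) in 60TM and 43.5 CPM (11.9 to 112) in WT, on 17 UMIs in 60TM and 4 in WT. The remaining 60TM astrocytes had 96.6 CPM, against 119 CPM in WT, a ratio of 0.811 (0.736 to 0.894), which is within 1.5-fold. Atp2a2 stood at 211 CPM in the clusters of 60TM cells only and at 325 CPM in the other 60TM astrocytes, beside 327 CPM in WT. Without those clusters its ratio was 0.993 (0.939 to 1.05), in place of 0.855. Stim1 had 27.5 CPM in those clusters, 40.4 CPM in the other 60TM astrocytes and 42.9 CPM in WT.

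Orai1 differed from these genes in that its ratio was as large without those clusters, at 1.29 (1.17 to 1.43). Its level was 117 CPM in the clusters of 60TM cells only and 120 CPM in the other 60TM astrocytes, against 92.6 CPM in WT. Without the clusters, the ratios of Itpr1 at 1.38 (0.927 to 2.08), of Itpr2 at 1.12 (1.02 to 1.22), of Atp2b1 at 0.892 (0.814 to 0.978) and of Stim2 at 1.18 (0.847 to 1.66) were within 1.5-fold. With them left out, none of the 9 genes was past 1.5-fold.

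**Figure D4:**
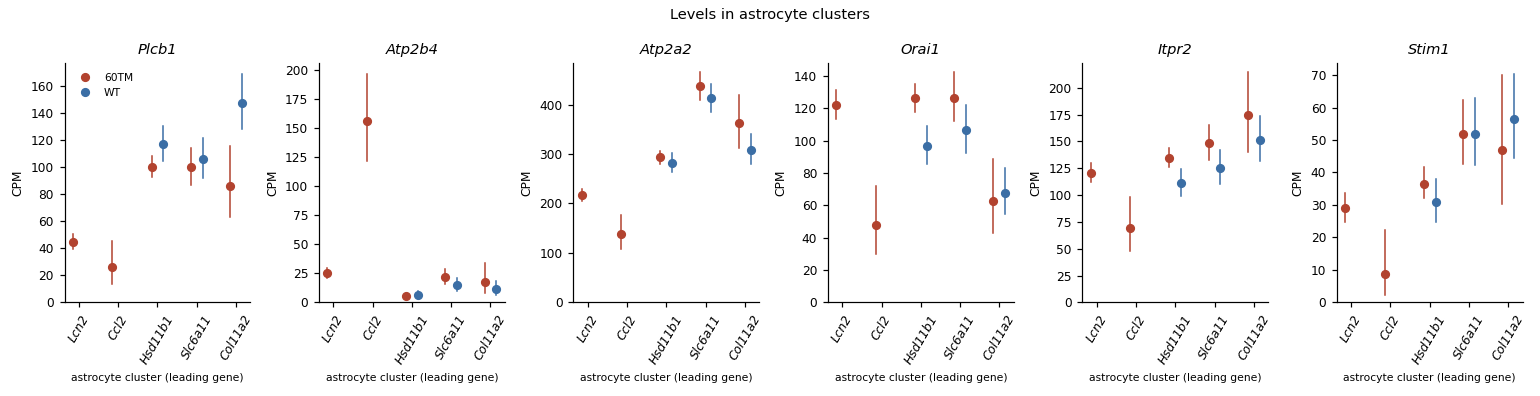
Levels (CPM) of 6 genes in 5 astrocyte clusters, each named by a leading gene, with 60TM in red left of WT in blue and bars for 95% counting intervals. The Lcn2 and Ccl2 clusters hold no WT cells, and the shallow cluster led by Mt1 and Gfap is not drawn. Atp2b4 reaches 156 CPM in the Ccl2 cluster, and Plcb1 stands at 44.8 CPM in the Lcn2 cluster and 26.0 CPM in the Ccl2 cluster.

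Within the astrocyte clusters that both libraries shared, few genes were past 1.5-fold. In the cluster led by Hsd11b1 and Cldn10 (847 cells in 60TM, 383 in WT), 0 of 6 genes with at least 100 UMIs were, against 8.27% of all genes. There Plcb1 had a ratio of 0.854 (0.747 to 0.979) and Orai1 of 1.303 (1.13 to 1.501). In the cluster led by C030005K06Rik and Slc6a11 (287 cells in 60TM, 298 in WT), again 0 of 6 were, against 4.53% of all genes, with Plcb1 at 0.942 and Orai1 at 1.19. In the cluster led by Grin2c and Col11a2 (172 cells in 60TM, 354 in WT), 1 of 6 was, against 20.5% of all genes. That was Plcb1, with 86.3 CPM (62.7 to 116) in 60TM and 147 CPM (128 to 169) in WT, a ratio of 0.586 (0.413 to 0.815). Orai1 there had 62.7 CPM in 60TM and 67.9 CPM in WT, a ratio of 0.924 (0.599 to 1.39). This cluster was shallow, with median depths of 2133 UMIs in 60TM and 3058 in WT.

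Astrocytes were also split by their own Gfap and Lcn2 counts. Cells with at least 2 Lcn2 UMIs, all 355 of them from 60TM, had 40.6 CPM of Plcb1 (34.8 to 47.2) and 38.0 CPM of Atp2b4 (32.3 to 44.4). Cells with high Gfap and no Lcn2 UMI had 62.5 CPM of Plcb1 in 60TM and 109 CPM in WT, a ratio of 0.574 (0.423 to 0.794). Cells without a UMI of Gfap or Lcn2 had 111 CPM of Plcb1 in 60TM and 121 CPM in WT, a ratio of 0.919 (0.751 to 1.12). The other 60TM astrocytes of this split had 99.4 CPM (91.7 to 107). They were not told apart from the 60TM cells without either transcript, with an interval of 94.3 to 130 CPM. Within the 60TM library Plcb1 was thus lowest in the cells with at least 2 Lcn2 UMIs. Orai1 in the high-Gfap cells had 110 CPM in 60TM and 43.6 CPM in WT, a ratio of 2.52 (1.61 to 4.17) on 20 WT UMIs.

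Microglia, the resident immune cells, had 8 genes with at least 100 UMIs, and 0 of 8 were past 1.5-fold, against 4.67% of all genes. Their ratios lay between 0.927 (Stim2) and 1.303 (Itpr1). Orai1 had 263 CPM (256 to 271) in 60TM and 249 CPM (240 to 257) in WT, a ratio of 1.06. Itpr2, Slc8a1 and Atp2b1 had ratios of 1.01, 0.999 and 1.01 on at least 1427 UMIs in each library.

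Oligodendrocytes likewise had 0 of 8 genes past 1.5-fold, against 4.48% of all genes. For 6 of the 8 the interval lay above 1, beside 16.8% of all genes tested. These were Atp2a2 at 1.195 (1.14 to 1.25), Slc8a1 at 1.22 (1.13 to 1.31), Orai1 at 1.24 (1.05 to 1.46), Stim2 at 1.18, Stim1 at 1.14 and Atp2b1 at 1.10. Their median log2 ratio with Itpr2 and Plcb1 included was 0.18, beside 0.00 over all genes tested. Slc8a1 in its 3 largest clusters had ratios of 1.2 to 1.41. Itpr2 and Plcb1 were lower in the cluster led by Onecut2 and Ctps (55 cells in 60TM, 63 in WT). This cluster was deep, with a median of 38710 UMIs over both libraries. The share of all genes past 1.5-fold was not counted in it. Itpr2 had 29.3 CPM in 60TM and 72.8 CPM in WT there, a ratio of 0.403 (0.299 to 0.538). Plcb1 had 22.7 CPM in 60TM and 53.1 CPM in WT, a ratio of 0.427 (0.303 to 0.595). Over the whole class Itpr2 was at 0.937 (0.766 to 1.14), and Plcb1 at 0.724 (0.545 to 0.955) was the 1 gene of the 8 with an interval below 1.

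OPCs had 1 of 7 genes past 1.5-fold, against 3.48% of all genes. This was Slc8a1, with 58.6 CPM (45.6 to 74.1) in 60TM and 90.4 CPM (69.1 to 116) in WT, a ratio of 0.648 (0.453 to 0.930) on 69 UMIs in 60TM and 61 in WT. After thinning the ratio was 0.515 (0.263 to 0.997), on 19 UMIs in 60TM and 22 in WT. Itpr2 and Orai1 had ratios of 1.001 and 1.05. Committed precursors had 0 of 7 past 1.5-fold, against 3.74% of all genes, with Itpr2 at 1.11 (1.04 to 1.19) and Atp2a2 at 1.299 (1.14 to 1.48).

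In choroid plexus cells, which secrete cerebrospinal fluid, 4 of 6 genes were higher, against 14.7% of all genes past 1.5-fold, 12.3% higher and 2.41% lower. Itpr1 had 153 CPM in 60TM and 91.6 CPM in WT, a ratio of 1.67 (1.34 to 2.09). Atp2b1 had 48.8 CPM in 60TM and 21.7 CPM in WT, a ratio of 2.25 (1.45 to 3.66) on 22 WT UMIs. Atp2a2 at 1.67 (1.32 to 2.13) and Stim1 at 1.71 (1.19 to 2.54) were the others. WT had only 61 of these cells and 60TM 242, with 5.32% mitochondrial UMIs in 60TM and 3.91% in WT. An alternative filter took cells with at least 200 genes, in place of 500, and at most 5% mitochondrial UMIs. With it only 1 gene stayed past 1.5-fold, and this was not Atp2b1, which was at 1.12. Thinning left each of the 4 genes under 100 UMIs, Itpr1 with 69 in 60TM and 15 in WT, so none of them could be counted. The thinned ratios were 1.17 for Itpr1, 1.01 for Atp2a2, 1.39 for Stim1 and 5.32 (0.855 to 220) for Atp2b1, the last on 21 UMIs in 60TM and 1 UMI in WT. The 10 microglial markers in this class summed to 94.9 CPM in 60TM and 31.5 CPM in WT, with 10 of 10 higher. The 8 fibroblast markers summed to 561 CPM in 60TM and 274 CPM in WT, with only 4 of 8 higher. The part of either set was not tested.

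In neurons, excitatory neurons had 2 of 8 genes past 1.5-fold, against 9.77% of all genes. Stim2 had 108 CPM in 60TM and 70.6 CPM in WT, a ratio of 1.53 (1.14 to 2.08) that turned to 0.858 after thinning. Atp2b4 had 39.3 CPM in 60TM and 66.3 CPM in WT, a ratio of 0.593 (0.405 to 0.867). After thinning it was 0.143 (0.0150 to 0.691), on 2 UMIs in 60TM and 9 in WT. The inhibitory neuron markers in this class summed to 2327 CPM in 60TM and 5813 CPM in WT, with 1 of 8 higher in 60TM. These 8 include Snap25, which is also in the excitatory neuron set. The astrocyte markers summed to 1677 CPM in 60TM and 800 CPM in WT, with 10 of 10 higher. The part of the inhibitory neuron and astrocyte markers in these ratios was not tested. Immature granule neurons had 1 of 5, against 3.07% of all genes, which was again Stim2, with 50.2 CPM in 60TM and 28.3 CPM in WT, a ratio of 1.77 (1.19 to 2.65) that was 1.35 after thinning. Microglial markers in this class summed to 57.3 CPM in 60TM and 125 CPM in WT, with 1 of 10 higher. Choroid plexus markers summed to 366 CPM in 60TM and 27.7 CPM in WT, with 5 of 8 higher. The part of either set was not tested.

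Endothelial cells had 1 of 7 genes past 1.5-fold, against 8.84% of all genes. Itpr2 had 132 CPM (112 to 153) in 60TM and 72.3 CPM (53.8 to 95.1) in WT, a ratio of 1.82 (1.32 to 2.54) that was 1.21 after thinning. Microglial markers in this class summed to 362 CPM in 60TM and 1235 CPM in WT, and pericyte or smooth muscle markers to 1261 CPM in 60TM and 1943 CPM in WT. Oligodendrocyte markers summed to 1794 CPM in 60TM and 935 CPM in WT, with 10 of 10 higher. Astrocyte markers summed to 2205 CPM in 60TM and 1702 CPM in WT, with 9 of 10 higher. Choroid plexus markers summed to 453 CPM in 60TM and 41.1 CPM in WT, with 5 of 8 higher. The part of all these markers was not tested.

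A wider list of 94 other calcium genes, ordered by role, was counted in the same way, and 93 were found. In astrocytes 56 had at least 100 UMIs, of which 6 were higher and 3 lower, against 6.8% of all genes higher and 7.67% lower, with a median log2 ratio of -0.09 beside -0.06 over all genes. Plce1, another phospholipase C, had 60.1 CPM in 60TM and 22.3 CPM in WT, a ratio of 2.69 (2.25 to 3.24). Rcan1 and Rcan2, regulators of calcineurin, had ratios of 2.18 (1.70 to 2.82) and 1.76 (1.38 to 2.25). Rgs5, which restrains G protein signalling and is also a pericyte marker, had a ratio of 1.97 (1.18 to 3.48). Ahcyl1, a regulator of inositol trisphosphate receptors, had 331 CPM in 60TM and 533 CPM in WT, a ratio of 0.620 (0.594 to 0.648). Plcb3, a close relative of Plcb1, was lower as well at 0.664 (0.540 to 0.818), as was the exchanger Slc24a3 at 0.662 (0.454 to 0.975). Without the clusters of 60TM cells only, Plce1 at 2.34 (1.94 to 2.85), Rcan1 at 1.57 (1.19 to 2.07), Rgs5 at 2.48 (1.46 to 4.43) and Plcb3 at 0.651 (0.516 to 0.822) were past 1.5-fold, Rgs5 on only 69 UMIs in 60TM and 18 in WT. Rcan2 at 1.33 (1.02 to 1.75), Ahcyl1 at 0.791 (0.756 to 0.829) and Slc24a3 at 0.788 (0.524 to 1.19) were within it. Of 7 mitochondrial uptake genes, none was past 1.5-fold in astrocytes, against 14.5% of all genes. None was past it either among 7 cytosolic sensor and buffer genes, 6 store calcium binding genes, 5 entry genes and 2 store release channel genes.

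In microglia 0 of 54 list genes were past 1.5-fold, against 4.67% of all genes. In oligodendrocytes 1 of 45 was, against 4.48% of all genes. This was Hspa5, the store chaperone BiP, with 314 CPM in 60TM and 184 CPM in WT, a ratio of 1.71 (1.64 to 1.78). It was also higher in OPCs, at 1.504 (1.28 to 1.78). There the pump Atp2b2 was higher at 1.81 (1.199 to 2.81), and the channel Trpm7 lower at 0.607 (0.429 to 0.858), making 3 of 31, against 3.48% of all genes.

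**Figure D5:**
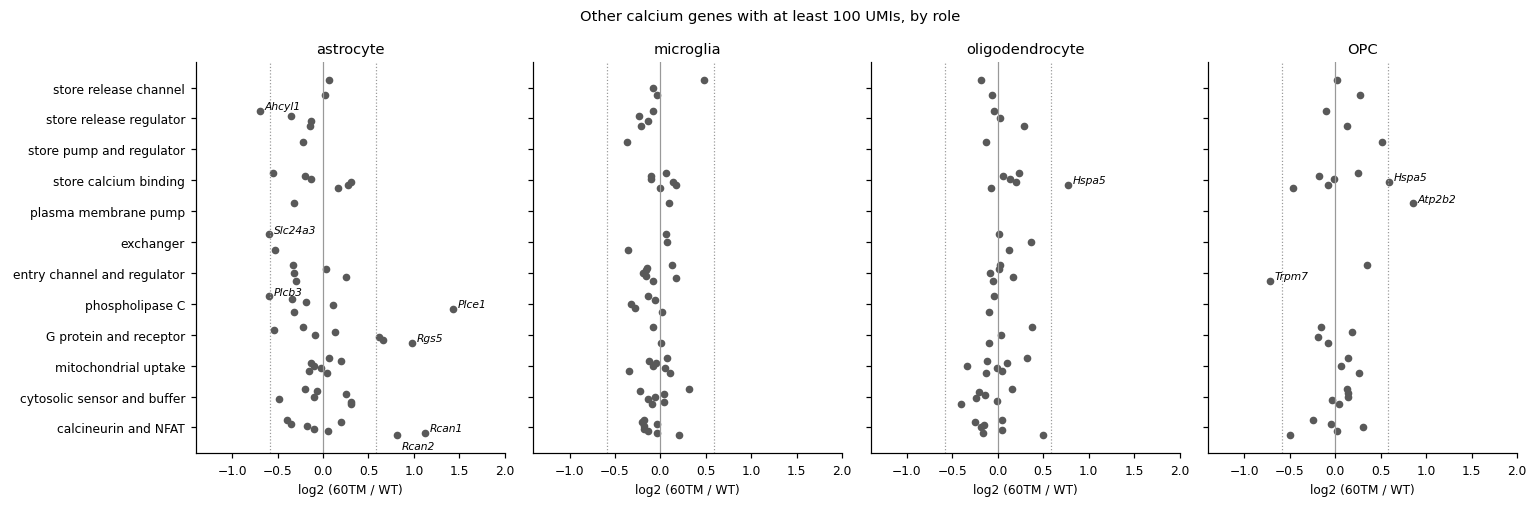
Log2 ratio of the 60TM to the WT library for other calcium genes with at least 100 UMIs in 4 classes, by role. Each point is 1 gene, dotted lines mark 1.5-fold, and named genes are those past it with an interval that excludes 1, at most 4 in each direction. Astrocytes have 9 of 56 genes past the lines and microglia 0 of 54.

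Among 10126 genes, those most like each member were found by Pearson's r over 26 profiles of class and library, which share cells' library, depth and class and are given as description. Atp2b1 was most like Synj1 (0.939) and Mycbp2 (0.936), Orai1 like Rpn2 (0.926) and Tram1 (0.901), and Itpr1 like Sntb2 (0.924) and Tpd52l1 (0.828). Plcb1 was most like Erc1 (0.916) and Nova2 (0.906), and Itpr2 like Smox (0.898) and Etv6 (0.887). Atp2a2 was most like Kirrel3 (0.890) and Cdh11 (0.885), and Slc8a1 like Dgkd (0.880) and Plekhm3 (0.867). Atp2b4 was most like Ntrk3 (0.856) and Nell2 (0.850). The values were lower for Stim2, with Plk2 (0.736) and 4430402I18Rik (0.726), and for Stim1, with Gpr137 (0.730) and Cpeb2 (0.727). Among the 10 themselves, Atp2b1 with Slc8a1 (0.809) and Itpr2 with Orai1 (0.793) had the highest values, and Itpr1 with Itpr2 had -0.259.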

How the data were processed

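UMI counts per gene and barcode were deposited as raw counts, made with Cell Ranger 5.0.0 per the file headers and aligned to GRCm38 per the submitters' processing notes. Their deposited lists of genes and of barcodes carry no measurement (unit: other). The annotation release and the use of intronic reads are not given in the sources used here.

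Barcodes with under 500 genes or over 15% mitochondrial UMIs were removed, as were the highest Scrublet doublet scores at 0.8% per 1000 barcodes (610 in 60TM, 377 in WT). Both libraries were clustered together without integration in scanpy 1.11.5 (2000 variable genes, 30 components, 15 neighbours, Leiden resolution 1, 32 clusters). A cluster took a class name with at least 3 markers from 165 genes of 21 classes, by a rule set after clusters of these data had been seen. UMIs were summed per class and library, with exact Poisson, conditional-binomial and Clopper-Pearson intervals, and floors of 3 counts for 0. The labels give means of 54044 reads per cell in 60TM and 63967 in WT.

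All 10 genes are named. From the calcium list, genes with at least 100 UMIs past 1.5-fold with an interval excluding 1 are named, at most 4 per direction in 4 classes. Genes most like a member are the 2 highest by Pearson's r on log2 (CPM + 5), among genes with at least 1000 UMIs. High Gfap means at least 10 UMIs per 10000. The members, lists and rules were chosen with earlier results of these data known. With 1 library per genotype no test was run, and 15 alternatives were tried. The calculations were tested on simulated data. Gene positions came from GENCODE, on the same build.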

Additional observations from a re-analysis of the deposited data

Results flagged for a closer look

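For 6 genes, the ratio of 60TM to WT lay below 1 in one class and above 1 in another, with both counting intervals excluding 1. Each is a contrast of 1 library with 1 library in each class, and none of these differences between classes was tested. Atp2a2 had a ratio of 0.855 in astrocytes and 1.67 in choroid plexus cells. Atp2b1 had 0.868 in astrocytes and 2.25 in choroid plexus cells, and Stim1 had 0.823 in astrocytes and 1.71 in choroid plexus cells. The choroid plexus values rested on 61 WT cells. That of Atp2b1 was 1.12 with at least 200 genes per cell and at most 5% mitochondrial UMIs. After thinning, those of Atp2a2 and Stim1 were 1.01 (0.557 to 1.97) and 1.39 (0.473 to 5.56). In astrocytes without the clusters that held 60TM cells only, Atp2a2 was at 0.993 (0.939 to 1.05) and Stim1 at 0.943 (0.805 to 1.11). Atp2b1 was there at 0.892 (0.814 to 0.978). Atp2b4 had 0.593 in excitatory neurons and 1.96 in astrocytes, where it was 0.960 without the clusters that held 60TM cells only. Slc8a1 had 0.648 in OPCs and 1.22 in oligodendrocytes. Plcb1 had 0.634 in astrocytes and 1.33 in immature granule neurons.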

How the results depend on the processing

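No paired analysis was possible because each genotype has 1 library and the labels give no replicate numbers; for the same reason no replicate could be left out. Of 1139 values of single genes under 15 alternatives, 1082 moved by less than their counting interval, 55 moved by more and 2 changed direction: Stim2 in excitatory neurons, 0.858 after thinning to 2000 UMIs per cell, and Atp2b4 in astrocytes, 0.960 without clusters of 1 library. The cause was not tested.

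Numbers of the 10 genes past the fold in astrocytes (3) became 1 after thinning. They were also 1 with at least 200 genes per cell and at most 5% mitochondrial UMIs. They became 0 at 2-fold and 0 without clusters of 1 library. The 1 gene counted after thinning was none of those 3. Plcb1 at 0.701 and Atp2b4 at 1.30 were then within 1.5-fold. Itpr1 was at 1.67 (0.863 to 3.50) but under 100 UMIs, on 41 in 60TM and 12 in WT. The number in OPCs (1) became 0 after thinning, where Slc8a1 was at 0.515 but under 100 UMIs, 0 at Leiden resolution 0.5, 0 with cells assigned by marker score and 0 at 2-fold. The number in choroid plexus cells (4) became 0 after thinning, which left each of those 4 genes under 100 UMIs. Atp2b1 was then at 5.32 on 21 UMIs in 60TM and 1 in WT. The number was 1 with at least 200 genes per cell and at most 5% mitochondrial UMIs, and 1 at 2-fold. The number in oligodendrocytes (0) became 1 without doublet removal, 1 with 5% free RNA subtracted, 1 by marker score, 1 at a minimum of 20 UMIs and 1 at a minimum of 1 UMI in each library. Microglia kept 0 under the alternatives run.

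For the calcium list, astrocytes (9) had 2 after thinning and 5 with at least 200 genes per cell and at most 5% mitochondrial UMIs. They had 19 at 20 UMIs, 29 at 1 UMI in each library, 2 at 2-fold and 5 without clusters of 1 library. Microglia (0) had 1 after thinning, 8 at 20 UMIs and 19 at 1 UMI in each library. Oligodendrocytes (1) had 2 as a mean over cells, 5 without doublet removal, 3 at 20 UMIs, 22 at 1 UMI in each library and 0 at 2-fold. OPCs (3) had 1 after thinning, 1 without doublet removal, 6 at 20 UMIs, 16 at 1 UMI in each library and 0 at 2-fold.

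In astrocytes the ratio of Plcb1 ranged from 0.627 to 0.811 over 15 alternatives and was past 1.5-fold in 10, Atp2b4 ranged from 0.960 to 2.18 and was past it in 13, and Itpr1 from 1.02 to 1.93 and in 12. No value could be had for dividing cells at Leiden resolution 0.5 or for excitatory neurons without doublet removal, where no cluster took that name, and leaving out clusters of 1 library applied to astrocytes and microglia. Thinning also left fewer genes with 100 UMIs. Depth limited low genes: Slc8a1 in astrocytes, Atp2b4 in microglia and oligodendrocytes, and Plcb1 in microglia stayed under 100 UMIs.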
